A study of Rattus norvegicus with 8 samples.

Results

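Transcripts of 10 genes of bone and its mineral were examined in the rat Achilles tendon: Bglap, Ibsp, Dmp1, Mepe, Spp1, Alpl, Phex, Runx2, Sp7 and Sost. They were taken by gene symbol from the deposited table, in which all 10 had a row among 15590 genes. RNA had been sequenced from the right Achilles tendons of male, young adult, wild-type (WT) Sprague-Dawley rats. One group of 4 libraries came from rats killed immediately after 1 h of uphill treadmill running, called 0 h p.r. for post-run, and the other 4 libraries came from naïve controls that did not run (NC). The whole dissected tendon was pulverised, so a level is that of all cells together, and fewer cells of a type and less RNA per cell cannot be told apart. By the study's methods the controls were killed together with a group rested for hours after its run. The sample titles give a time of killing, immediately, for the run group only, so running and the time of day cannot be told apart.

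Bone is laid down by osteoblasts, which secrete collagen and a set of acidic matrix proteins and which, once buried, become osteocytes. Mineral forms where phosphate is released and its inhibitors are removed, and the osteocyte products studied here regulate both steps. In a healthy tendon mineralised tissue is confined to the zone where the tendon enters the heel bone, with a stretch of fibrocartilage before it.

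Libraries held 11350560 to 17897056 recovered reads in the listed genes. FPKM is the number of fragments per kilobase of transcript, scaled for library depth, so levels can be set side by side between genes. NC replicate 2 was the shallowest and gave 31.08% of its FPKM to 13 mitochondrial genes, against 16.279% to 21.937% in the other 7 libraries. The tissue's own markers were present in all 8 libraries: Tnmd, a membrane protein of tenocytes, lay between 87 and 348 FPKM, and Scx, a tendon transcription factor, between 20.5 and 53.5 FPKM.

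Without a filter on low values, all 10 genes had the higher mean of log2(FPKM + 0.5) in 0 h p.r., where 49.3% of all genes did. The median log2 fold change of the 10 was 1.38, against -0.01 over all genes, and 6 of the 10 reached a log2 fold change of 1, which 2.74% of all genes did in this direction. These differences were large beside those of most genes but uneven between libraries. The study lists all of the 10 genes but Runx2 among the changed genes of its ossification term, from these same groups. As the genes were chosen with earlier results of these data known, the comparisons with all genes in this paragraph are not independent support. For 3 of the 10 genes no control reached a post-run value, Phex, Spp1 and Sost, against 7.6% of all genes in this direction and 14.8% in either. In the limma fit to the 13863 genes with at least 0.5 FPKM in at least 4 libraries, 7 of the 10 genes were tested and 0 of them passed both thresholds (a fold of 2 or more and a Benjamini-Hochberg adjusted p below 0.05), where 2.7% of all tested genes passed. At an unadjusted p under 0.05, 6 of these 7 were higher (11.4% of all tested genes). In limma's voom on recovered reads 1 was past both thresholds, Phex, which met the filter through its post-run libraries alone. The study's own DESeq2 comparison of these groups, at the same thresholds, reported Bglap and Sost as up-regulated. The plot of member levels by library shows the spread behind these values.

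**Figure D1:**
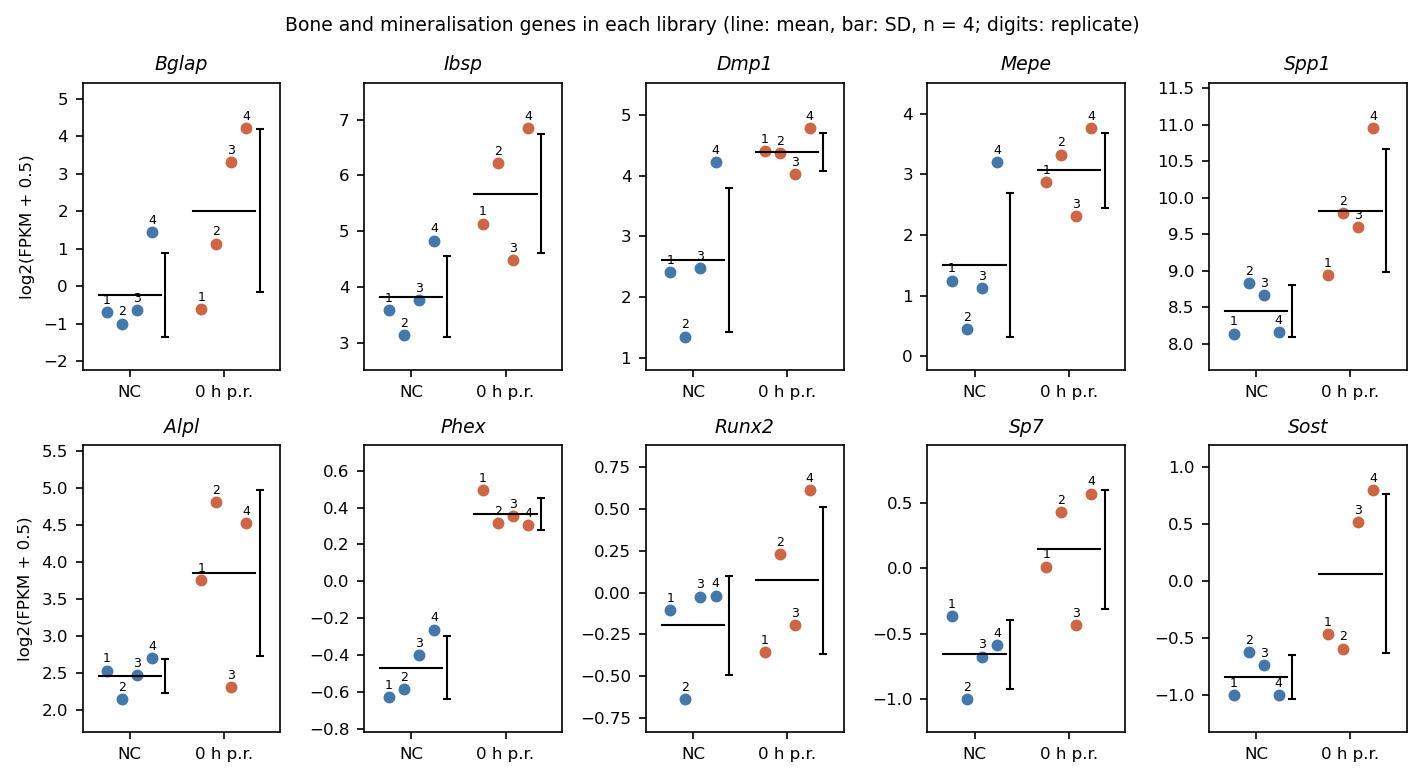
Levels of the 10 genes in each library, as log2(FPKM + 0.5), with NC in blue and 0 h p.r. in orange. Points are single libraries with their replicate number, horizontal lines are group means and bars are SD (n = 4). The groups are apart for Phex, Spp1 and Sost, and NC replicate 4 lies far above the other controls for Bglap, Dmp1 and Mepe.

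Of the 10 genes, 8 had promoter windows in RefSeq (build GRCr8). The 250 bases before the annotated start are printed for the osteoblast product Bglap and for the matrix genes Spp1, Mepe and Ibsp, which are neighbours on chromosome 14, to show how windows of members differ in the motifs searched. They lie on the minus strand at chr2:176137319-176137568 (Bglap), chr14:5619805-5620054 (Spp1), chr14:5736859-5737108 (Mepe) and chr14:5757243-5757492 (Ibsp). Each is written 5′ to 3′ in the direction of transcription. Capitals mark the letters named after the sequences, as they read on the printed strand.
Bglap: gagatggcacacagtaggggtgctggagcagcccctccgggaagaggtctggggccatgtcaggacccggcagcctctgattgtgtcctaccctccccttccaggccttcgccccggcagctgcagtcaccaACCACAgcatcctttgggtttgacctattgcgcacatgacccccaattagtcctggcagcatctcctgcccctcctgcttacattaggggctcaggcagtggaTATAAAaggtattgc
Spp1: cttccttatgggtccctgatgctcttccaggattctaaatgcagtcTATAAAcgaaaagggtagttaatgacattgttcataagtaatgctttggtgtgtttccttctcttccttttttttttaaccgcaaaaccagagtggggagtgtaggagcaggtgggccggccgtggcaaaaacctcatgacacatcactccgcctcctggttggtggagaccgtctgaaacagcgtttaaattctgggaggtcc
Mepe: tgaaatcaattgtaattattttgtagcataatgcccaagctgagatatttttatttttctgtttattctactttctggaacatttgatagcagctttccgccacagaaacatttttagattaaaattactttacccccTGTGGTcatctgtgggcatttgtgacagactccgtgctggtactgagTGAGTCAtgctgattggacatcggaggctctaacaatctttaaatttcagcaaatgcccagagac
Ibsp: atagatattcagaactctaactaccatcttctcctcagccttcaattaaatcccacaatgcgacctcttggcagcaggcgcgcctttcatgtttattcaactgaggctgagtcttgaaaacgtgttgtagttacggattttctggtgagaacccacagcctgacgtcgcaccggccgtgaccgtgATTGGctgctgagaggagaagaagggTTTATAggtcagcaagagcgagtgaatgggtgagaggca

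Both strands of each window were searched for TGTGGT (the core of the site bound by RUNX factors), TATAAA (letters of the TATA box, wherever they stood), the CCAAT box, the sequence TGACTCA (a site bound by AP-1 factors), and no occurrence marked here overlaps another motif. TGTGGT was found in the windows of Bglap, as ACCACA at 118 to 113 bases before the start, Mepe and Runx2, and 14.5% of 33469 rat windows of this length hold it. TATAAA was found in Bglap at 15 to 10 bases before the start, in Spp1 at 204 to 199 bases and in Ibsp, as TTTATA, at 39 to 34 bases, against 12.9% of windows. CCAAT stood in the windows of Bglap, Ibsp, Mepe and Sost, against 34% of windows, and is in capitals for Ibsp only (ATTGG). The single TGACTCA was that of Mepe, as TGAGTCA at 65 to 59 bases before the start, against 4.05% of windows. These are matches of letters and were not examined for binding.

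Among the secreted proteins of bone matrix, Spp1 (osteopontin, ENSRNOG00000043451), a phosphoprotein of bone that many other cells also secrete, was by far the most abundant of the 10 genes. Its levels were 281, 455, 405 and 286 FPKM in NC replicates 1 to 4 and 489, 883, 773 and 1983 FPKM in 0 h p.r. replicates 1 to 4. Every post-run library lay above every control, the lowest only just, and 0 h p.r. replicate 4 stood well above the rest. The mean was 357 ± 86.7 FPKM in NC and 1032 ± 655 FPKM in 0 h p.r. (SD, n = 4 each). The log2 fold change was 1.37 (SE 0.39, limma with Benjamini-Hochberg adjustment, adjusted p 0.0769). Leaving out 0 h p.r. replicate 4 brought it to 0.99. With the libraries weighted by their quality in limma, Spp1 passed both thresholds (adjusted p 0.0182).

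Ibsp (bone sialoprotein, ENSRNOG00000002158), which seeds mineral crystals, was at 11.5, 8.26, 13.1 and 28 FPKM in NC and at 34.7, 74.1, 21.9 and 115 FPKM in 0 h p.r. Of the post-run libraries 3 exceeded all controls, while 0 h p.r. replicate 3 fell below NC replicate 4. Ibsp differed by 1.84 on the log2 scale (SE 0.53, limma adjusted p 0.0762), with 95% limits of 0.65 and 3.03. No single library brought the adjusted p under 0.05 when it was left out (0.0596 to 0.194 over 8 fits).

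Dmp1 (dentin matrix protein, ENSRNOG00000002167), an osteocyte protein that guides mineral deposition, was at 4.81, 2.04, 5.05 and 18.2 FPKM in NC. After running it was at 20.7, 20.2, 15.8 and 27.2 FPKM. The post-run values were close together, and the overlap came from NC replicate 4, which lay above 0 h p.r. replicate 3. Dmp1 differed by 1.79 on the log2 scale (SE 0.51, limma adjusted p 0.0746). Without NC replicate 4 it was 2.32, with a limma adjusted p of 0.00966, while the other 7 omissions left the adjusted p over 0.05 (up to 0.176) and the difference as low as 1.36.

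Mepe (ENSRNOG00000002154), an osteocyte phosphoglycoprotein that restrains mineralisation, showed the same division of the controls. Its levels were 1.87, 0.867, 1.68 and 8.7 FPKM in NC and 6.81, 9.5, 4.47 and 13.1 FPKM in 0 h p.r. NC replicate 4 lay above the post-run replicates 1 and 3, and the other controls lay below all post-run libraries. The log2 fold change was 1.56 (SE 0.55, limma adjusted p 0.133), and without NC replicate 4 it was 2.13 with an adjusted p of 0.0227. The other 7 omissions gave a limma adjusted p of up to 0.274 and differences as low as 1.21. With Spp1, Ibsp and Dmp1, Mepe belongs to a cluster of matrix genes that stand in a row on chromosome 14. Pkd2, which is next to Spp1 on the outer side and encodes a cation channel, was at 27.5 to 42.2 FPKM in NC and 34.6 to 63.1 FPKM in 0 h p.r. (log2 fold change 0.36, limma adjusted p 0.322). Dspp, the neighbour of Dmp1 on the other side, was not analysed here.

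Bglap (osteocalcin, ENSRNOG00000019607), a late product of osteoblasts that binds calcium, had the largest mean difference and the widest post-run spread of the 10 genes on the log2(FPKM + 0.5) scale. In NC it was at 0.116, 0, 0.14 and 2.21 FPKM, which came from 1, 0, 1 and 16 recovered reads. In 0 h p.r. it was at 0.154, 1.7, 9.45 and 18.2 FPKM, from 1, 15, 59 and 160 reads. Post-run replicate 1 was as low as the controls, NC replicate 4 was above post-run replicate 2, and post-run replicates 3 and 4 were above all others. The log2 fold change of 2.24 had an SE of 1.00 and limits of -0.02 and 4.50 (limma adjusted p 0.226), and no library left out brought the adjusted p under 0.05 (0.0823 to 0.445). The difference itself ranged from 1.51 to 3.12 in these fits. It was 3.18 with 0.1 FPKM added, 1.81 with 1 FPKM added and 3.35 in voom.

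Of the genes that act on phosphate, Alpl (tissue-nonspecific alkaline phosphatase, ENSRNOG00000013954), which cleaves the mineral inhibitor pyrophosphate, was nearly even among the controls at 5.29, 3.94, 5.06 and 6.01 FPKM. In 0 h p.r. it was at 13, 27.6, 4.45 and 22.5 FPKM. Post-run replicate 3 was within the control range and the other 3 were above every control. The log2 fold change was 1.39 (SE 0.47, limma adjusted p 0.123). Leaving out 0 h p.r. replicate 3 brought it to 1.90, with a limma adjusted p of 0.0136. The adjusted p was over 0.05 for the other 7 omissions, and the difference fell to 1.06 when 0 h p.r. replicate 2 was omitted (limma adjusted p 0.276).

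Phex (ENSRNOG00000023440), a membrane peptidase of osteoblasts and osteocytes whose loss causes phosphate wasting, was low, and on the log2(FPKM + 0.5) scale its libraries lay closest together in both groups. Its levels were 0.147, 0.167, 0.258 and 0.334 FPKM in NC and 0.909, 0.744, 0.777 and 0.735 FPKM in 0 h p.r. The groups were clearly apart, with 7 to 21 recovered reads per control library and 42 to 57 per post-run library. Phex was higher after running by 0.83 on the log2 scale (SE 0.16, limma adjusted p 0.0243), under the fold threshold of 2, and 3.49% of tested genes were higher at an adjusted p under 0.05. The added 0.5 FPKM compresses the fold of so low a gene: it was 1.48 with 0.1 FPKM added (limma adjusted p 0.0295) and 1.82 in voom on the recovered reads (adjusted p 0.0104), both past both thresholds. Phex met the filter through its post-run libraries alone, as 0 controls reached 0.5 FPKM, and in the limma fit without a filter its adjusted p was 0.0109. The adjusted p exceeded 0.05 in 5 of 8 fits with a library left out, reaching 0.0816 without NC replicate 1.

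The remaining 3 genes were under the filter. The levels of Sp7 and Sost rest on few reads, while Runx2 had 8 to 43 recovered reads per control library and 21 to 105 per post-run library. Runx2 (ENSRNOG00000020193), the transcription factor that starts the osteoblast lineage, was at 0.429, 0.143, 0.483 and 0.488 FPKM in NC and 0.28, 0.674, 0.373 and 1.03 FPKM in 0 h p.r. Post-run replicates 1 and 3 lay within the controls and replicates 2 and 4 above them. In the limma fit without a filter the log2 fold change was 0.27 (SE 0.24, adjusted p 0.575), with limits of -0.27 and 0.81, and an exact permutation test gave a two-sided p of 0.371.

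Sp7 (osterix, ENSRNOG00000014082), which acts after Runx2 in osteoblast formation, was at 0.277, 0, 0.126 and 0.166 FPKM in NC and 0.509, 0.848, 0.24 and 0.989 FPKM in 0 h p.r. These came from 15 recovered reads in all controls and 70 in all post-run libraries. Post-run replicate 3 lay below NC replicate 1, and the other post-run libraries lay above every control. Without a filter the log2 fold change was 0.80 (SE 0.24, limma adjusted p 0.0893), and the exact permutation p was 0.0571.

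Sost (sclerostin, ENSRNOG00000020805), a Wnt inhibitor made by osteocytes, was the rarest in NC. The controls were at 0, 0.151, 0.102 and 0 FPKM, from 0, 1, 1 and 0 recovered reads. The post-run libraries were at 0.225, 0.165, 0.933 and 1.24 FPKM, from 2, 2, 8 and 15 reads. The groups did not overlap, but post-run replicates 1 and 2 were separated from NC replicates 2 and 3 by 1 read. Summed over libraries and scaled for depth, 27 reads against 2 gave a ratio of 12.4 with an exact 95% interval of 3.12 to 108, which covers counting error only and not the difference between libraries. The exact permutation test gave a two-sided p of 0.0286, the smallest that 70 assignments of 8 libraries allow, and in limma without a filter the log2 fold change was 0.90 (SE 0.31, adjusted p 0.132).

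**Figure D2:**
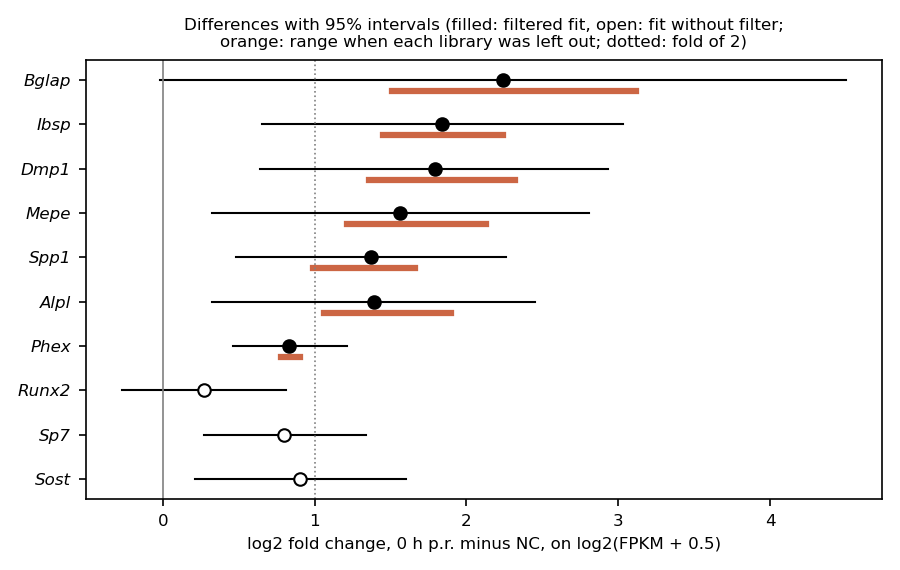
Difference between 0 h p.r. and NC in log2(FPKM + 0.5) for each gene, with limma's 95% interval. Filled points come from the fit with the filter and open points from the fit without it, orange bars give the range of the estimate when each library was left out in turn, and the dotted line is a fold of 2. Bglap has the largest estimate (2.24) and the widest interval, and Phex (0.83) the narrowest range.

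The order of the levels was similar in both groups at the top. Spp1 led, with 81.7% to 96.7% of the summed FPKM of the 10 genes, and Ibsp came next, each above the gene that followed in all 4 libraries of both groups. Dmp1 (7.51 ± 7.22 FPKM in NC, SD, n = 4) and Alpl (5.08 ± 0.861) could not be ordered in NC, where Dmp1 was the higher in 1 of 4 libraries, and in 0 h p.r. it was the higher in 3 of 4. Mepe, at 3.28 ± 3.64 FPKM in NC, was above Bglap in all 4 control libraries but in 2 of 4 post-run libraries. In 0 h p.r. the means of Phex, Sp7, Sost and Runx2 lay between 0.59 and 0.791 FPKM and no gene of these was above the next in more than 2 of 4 libraries.

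The genes varied together to some extent within a group, which is seen in the map of deviations from the group means. Of 45 pairs, 33 had a Pearson's r above 0 over the 8 libraries, with a median of 0.46, and 7 reached 0.8. Over all pairs of the 15590 genes 50% were above 0, the median was 0.00 and 3.15% reached 0.8, against 73.3% above 0 and 15.6% at 0.8 for the bone genes. The points of each pair share the same libraries, and these values are given as a description. Dmp1 and Mepe were most alike (r = 0.96, Spearman's rho 0.95, and r = 0.93 without the 2 libraries farthest from the median of Dmp1), followed by Sp7 and Alpl (r = 0.90, rho 0.88, and 0.75 likewise). Ibsp varied with Mepe (r = 0.87), Runx2 (0.85), Alpl (0.83) and Sp7 (0.82). Sost had r = 0.72 with Spp1 and 0.71 with Bglap, the latter falling to 0.36 without the 2 farthest libraries. Bglap had r = 0.61 with Runx2 and 0.58 with Spp1, and these became 0.03 and -0.60 likewise. Phex and Spp1 were the least alike (r = -0.42).

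**Figure D3:**
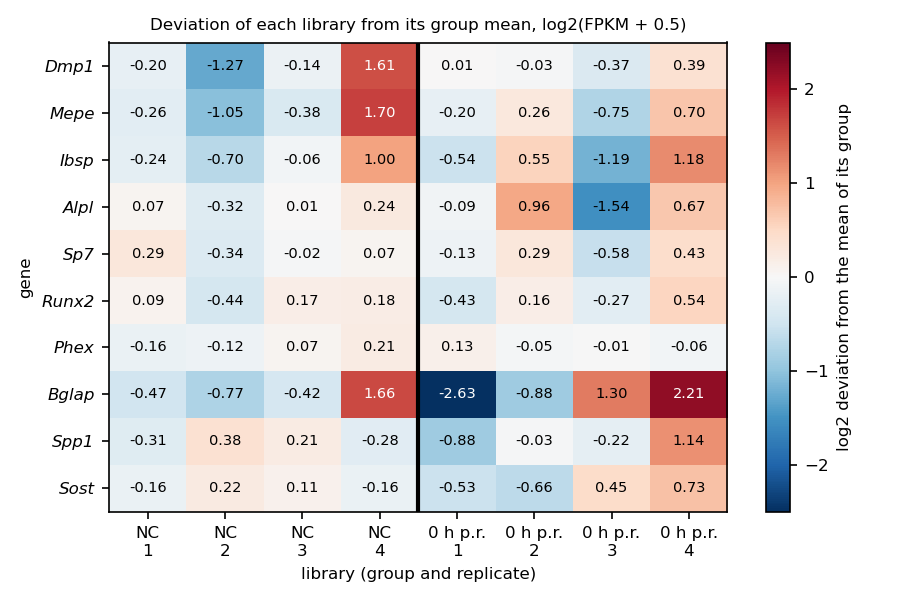
Deviation of each library from the mean of its group in log2(FPKM + 0.5), for the 10 genes in rows and the 8 libraries in columns (n = 4 a group), red for higher and blue for lower. NC replicate 4 is 1.61 to 1.70 above its group mean for Dmp1, Mepe and Bglap, and 0 h p.r. replicate 3 is low for Alpl (-1.54) and Ibsp (-1.19) while high for Bglap.

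Averaged over the 7 tested genes after standardisation, NC replicate 4 (1.17) and 0 h p.r. replicate 4 (0.97) were the high libraries, and NC replicate 2 (-0.73) and 0 h p.r. replicate 3 (-0.68) the low ones. The gene most like this average among those tested was Osr2, a transcription factor of the odd-skipped family (r = 0.975), followed by Atf6b (0.975), Tmem67 (0.973), LOC499331 (0.972) and Scn2b (0.969). Next came Gnrh1 (0.966), Rab43 (0.961), Ncapd3 (0.958), AABR07070307.1 (0.956) and Ttf1 (0.956), and these 10 were picked as the highest of all other tested genes. Of the marker lists described in the following paragraphs, the cartilage genes had a median r of 0.74 with this average, where the 7 bone genes that make up the average had 0.63, and the skeletal muscle genes had a median r of -0.64. The median was 0.53 for mineral control, 0.40 for osteocyte, 0.21 for osteoblast and 0.02 for all tested genes, whose 95th percentile for single genes was 0.72. None of these 10 passed both thresholds in limma between the groups, and their log2 fold changes lay between -0.85 (Scn2b) and 0.35 (Rab43).

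Other genes of bone were counted from lists, each read against the 2.7% of tested genes past both thresholds. Among further osteoblast genes, 11 of 16 tested were higher and 5 lower, with a median log2 fold change of 0.18, and 0 passed both thresholds. The abundant collagen and matrix genes had small differences, with log2 fold changes of 0.05 for Col1a1, 0.13 for Col1a2 and -0.14 for Sparc (limma adjusted p 0.958, 0.899 and 0.873). The largest differences were those of Dlx3 (1.54, limma adjusted p 0.174), Msx2 (1.13, 0.101) and Ifitm5 (1.12, 0.0672). Dlx3 and Msx2 are homeobox factors and Ifitm5 is a membrane protein of osteoblasts. Every post-run library exceeded every control for 6 of the 18 genes with a row (7.6% of all genes), which were Msx2, Ifitm5, Bmp2, Atf4, Bmp4 and Cbfb. The stress-response factor Atf4 had a limma adjusted p of 0.0338 at a log2 fold change of 0.70, under the fold threshold. This adjusted p was up to 0.109 with a library left out (0 h p.r. replicate 2).

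Among genes of phosphate and mineral control, 13 of 14 tested were higher and 2 passed both thresholds. Slc20a1, a sodium-dependent phosphate importer, was at 17.4, 15.8, 18.8 and 25.2 FPKM in NC and 45, 53.4, 49.6 and 39.8 FPKM in 0 h p.r. Its groups were far apart, and it rose by 1.28 on the log2 scale (SE 0.16, limma adjusted p 0.00427). Stc1, a secreted glycoprotein that acts on calcium and phosphate, was at 4.19, 5.07, 4.84 and 5.59 FPKM in NC and 29.3, 26.4, 26.3 and 11.2 FPKM in 0 h p.r. It rose by 2.05 (SE 0.28, limma adjusted p 0.00595), least in 0 h p.r. replicate 4. Both calls held whichever of the 8 libraries was left out. The related Stc2 had a log2 fold change of 1.43 (limma adjusted p 0.0597). Among the post-run libraries replicate 4 was the lowest for Slc20a1 and Stc1, and the highest for every bone gene examined above except Alpl and Phex.

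Of 7 further osteocyte genes, 6 were higher and Cd44, a hyaluronan receptor of many cell types, was the 1 past both thresholds (log2 fold change 1.13, limma adjusted p 0.00817). Irx5 (1.07) and Kcnk2 (0.60) did not pass, at limma adjusted p of 0.093 and 0.362. Among osteoclast genes 0 of 5 tested passed. Acp5, the acid phosphatase of osteoclasts, was lower in every post-run library than in every control (log2 fold change -0.57, limma adjusted p 0.0607), Tnfrsf11a, the receptor that starts osteoclast formation, was at -0.35 (0.227), and Nfatc1, a factor downstream of it, was at 0.76 (0.0482, under the fold threshold, and up to 0.127 with a library left out). Of 3 genes that control osteoclasts, Il6 passed both thresholds. It was at 0.161, 0, 0.326 and 0.0643 FPKM in NC and 35.1, 36.9, 42.8 and 10.4 FPKM in 0 h p.r. (log2 fold change 5.49, limma adjusted p 0.00036). Il6 met the filter through its post-run libraries alone, and without a filter the count of this list past both thresholds was also 1. Tnfrsf11b (osteoprotegerin), the decoy that blocks osteoclast formation, was at 5.9, 9.64, 35.2 and 43.1 FPKM in NC and 40.8, 49.9, 99.5 and 261 FPKM in 0 h p.r. Its groups overlapped by NC replicate 4 alone (log2 fold change 2.27, limma adjusted p 0.109). Csf1 was at 0.39 (0.199).

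Markers of other tissues that a dissected tendon can hold also moved between libraries, and their part in the results above was not tested. The cartilage list summed to 241, 441, 424 and 345 FPKM in NC and to 615, 757, 437 and 1003 FPKM in 0 h p.r., so that post-run replicate 3 alone lay within the control range. Most of this sum was Ucma, a protein secreted by chondrocytes, at 186, 421, 318 and 234 FPKM in NC and 437, 456, 322 and 572 FPKM in 0 h p.r. (log2 fold change 0.66, limma adjusted p 0.198), while NC replicate 2, the highest control by the sum, was the lowest for Col2a1, Acan and Col10a1. Of its 9 tested genes 8 were higher, with a median of 1.51, and Mia, a protein secreted by chondrocytes, passed both thresholds (1.50, limma adjusted p 0.0232), though not when NC replicate 2 or the post-run replicates 2 or 3 were left out (adjusted p up to 0.0835). Col2a1, the collagen of cartilage, was at 12.3, 0.934, 21.1 and 40.6 FPKM in NC and 88.6, 131, 16.2 and 171 FPKM in 0 h p.r. Like Alpl and Ibsp it was low in post-run replicate 3. Col10a1, the collagen of hypertrophic cartilage, was at 6.09, 0, 12.9 and 19 FPKM in NC and 25.2, 63.7, 9.47 and 39.4 FPKM in 0 h p.r. The limma adjusted p was 0.161 for Col2a1 and 0.228 for Col10a1, and for Acan, the large proteoglycan of cartilage, it was 0.0998 (log2 fold change 2.06).

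Skeletal muscle transcripts summed to 3763 to 6885 FPKM in NC and to 34491, 5852, 15604 and 1020 FPKM in post-run replicates 1 to 4. Post-run replicate 4 had the least muscle RNA and the highest sum of the bone genes, with Spp1 (2183 FPKM) and without it (200 FPKM). Post-run replicate 1 had the most muscle RNA and the lowest post-run sum of the bone genes with Spp1 (567 FPKM, against 832 FPKM in replicate 3). Its sum of the 9 bone genes other than Spp1 was 77.4 FPKM, above that of replicate 3 (58.4 FPKM). Of the 8 muscle genes tested 0 passed both thresholds, and the largest differences were those of Myh7 (-3.42), Actn3 (1.76) and Myh1 (1.34), at limma adjusted p of 0.169, 0.45 and 0.508. The summed adipocyte genes were lower in every post-run library than in every control, with sums of 3028 to 6179 FPKM in NC and 966 to 2238 FPKM in 0 h p.r. So were 7 of the 8 genes (all but Pck1), where 14.8% of all genes did not overlap in either direction. Of 8 tested 5 fell past both thresholds, led by Cidec (-2.41), Lep (-2.37) and Retn (-2.14), at limma adjusted p of 0.027, 0.0286 and 0.0117. The others were Cfd (-1.70) and Adipoq (-1.69), at limma adjusted p of 0.0337 and 0.0363. With a library left out the count past both thresholds was 5 (NC replicate 4) or 6 (0 h p.r. replicate 4), but 1 or 2 for each of the other 6 libraries, with Retn past both thresholds in all 8 fits. It was 0, without Retn, under a block for the replicate number, and 8 with array weights.

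Tenocyte genes summed to 1963 to 3061 FPKM in NC and 2348 to 4433 FPKM in 0 h p.r., and of 8 tested only Egr1, an immediate-early factor, passed (2.44, limma adjusted p 0.00486). Comp and Scx were at 0.67 and 0.48 (limma adjusted p 0.167 and 0.245). Of 7 tested rows of marrow and blood genes 6 were lower, with a median of -0.29. Mpo, an enzyme of myeloid precursors, fell by 1.45 (limma adjusted p 0.0146), S100a9 of neutrophils rose by 1.23 (0.0192), and neither passed without 0 h p.r. replicate 2 or 3. S100a9 also failed to pass without NC replicate 3 or without 0 h p.r. replicate 1. Mpo met the filter through its controls alone, as no post-run library reached 0.5 FPKM. For this list 2 genes also passed both thresholds without a filter, and 0 with a filter on a mean FPKM of 2. In the same list Alas2 of erythroid cells was at -0.44 (limma adjusted p 0.56). The 4 osteoclast genes Calcr, Ocstamp, Dcstamp and Oscar, and Tnfsf11 of osteoclast control, had no row under these symbols and were not analysed here.

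**Figure D4:**
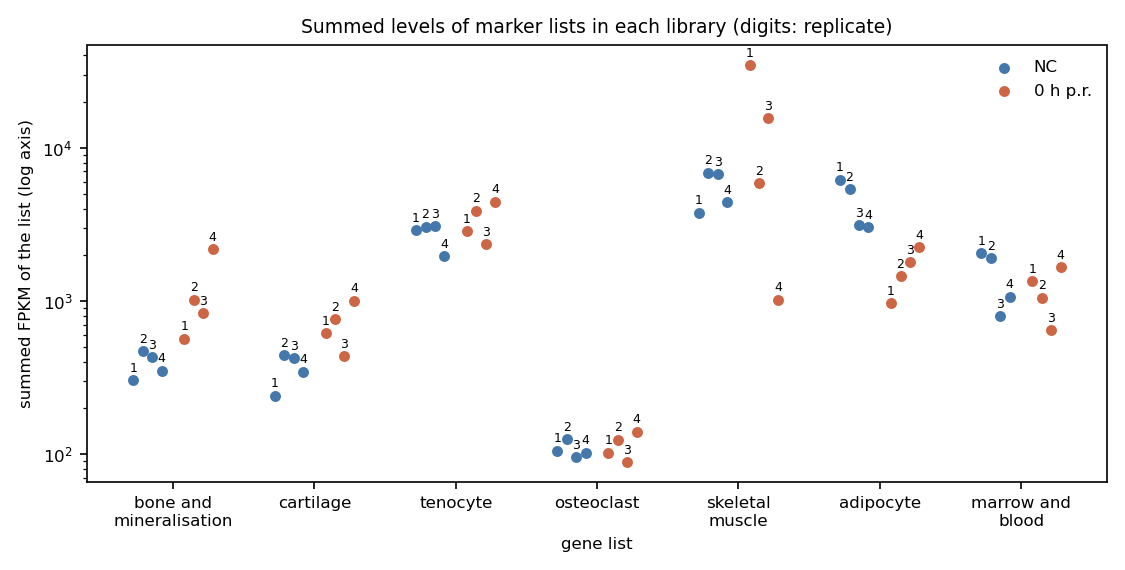
Summed FPKM of the 10 bone and mineralisation genes and of 6 marker lists in each library, on a log axis, with NC in blue, 0 h p.r. in orange and replicate numbers beside the points (n = 4 a group). The adipocyte sums do not overlap between the groups, nor do the bone sums, which are mostly Spp1 (the other 9 genes sum to 15.6 to 64.1 in NC and 58.4 to 200 in 0 h p.r.), and the muscle sum of 0 h p.r. spans 1020 to 34491.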

How the data were processed

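The authors captured polyadenylated RNA, made stranded libraries, and processed the reads with HISAT2 2.1.0 (rat build Rnor_6.0), featureCounts 1.6.3 and DESeq2 1.30.1, per the submitters' processing notes. The deposited table gave FPKM per gene and library. These deposited FPKM were also equalised between libraries, as sums differed (554130 to 900138) but median ratios to the gene means did not (0.9734 to 0.9793). Its deposited columns of log2 fold changes and of p-values hold the authors' own comparison and were not used. Groups and replicate numbers came from the sample titles. The study's methods state that tendons were taken from the right legs of running and control rats. The number of rats behind each library was not found there, so p-values measure the spread between samples.

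FPKM values were transformed to log2(FPKM + 0.5) and genes with at least 0.5 FPKM in at least 4 of 8 libraries were compared with limma 3.58.1 (lmFit, eBayes with trend) in R 4.3.3, two-sided, with Benjamini-Hochberg adjustment over 13863 genes. Calls needed an adjusted p under 0.05 and a fold of at least 2. This fold is on the scale with the added 0.5 and understates changes of low genes. Whole reads were recovered from the steps of FPKM values for 15590 of 15590 genes (100%, within 0.001 of a whole number or a relative 2e-08) and served as depth and for voom, and the count models of edgeR and DESeq2 were not run. Shallower libraries give coarser low values, 1 read being 0.116 FPKM for Bglap in NC replicate 1. On simulated reads with a fold of 4, the fit ran on 13896 genes, called 92% of 187 changed genes, and 7.03% of its calls were unchanged genes. Python 3.11.15, numpy 2.4.6, scipy 1.17.1, pandas 2.3.3 and matplotlib 3.10.9 did the rest.

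The members and lists were chosen with earlier results of these data known. Named were all members, the genes past both thresholds and the 3 largest differences of each list, the 10 genes most like the members and their neighbours on chromosome 14. Col1a1, Col1a2, Sparc, Tnmd, Ucma, Pck1, Bmp2, Bmp4, Atf4 and Cbfb were named after their values were seen. Alternatives comprised pseudocounts of 0.1 and 1, a filter on a mean FPKM of 2 or none, scaling by quantiles or by median ratios, a block for the replicate number, array weights, voom, no fold threshold, and leaving out each library.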

Additional observations from a re-analysis of the deposited data

Results flagged for a closer look

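Of 20 groups of 4 values (10 genes in 2 groups), 2 held a value far from the other 3 on the log2(FPKM + 0.5) scale, where chance gives about 1 in 20. For Bglap, NC replicate 4 was at 2.21 FPKM while the other controls were between 0 and 0.14 FPKM. For Runx2, NC replicate 2 was at 0.143 FPKM while the other controls were between 0.429 and 0.488 FPKM. NC replicate 2 was also the library with the fewest recovered reads.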

How the results depend on the processing

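All 118 recomputed fold changes of the 7 tested genes kept their direction. The count of these genes past both thresholds was 0 and became 1 with a pseudocount of 0.1 (Phex), 1 with array weights (Spp1), 1 with voom on recovered reads (Phex) and 1 at an adjusted p under 0.05 at any fold (Phex). It ranged from 0 to 2 when each library was left out, with Dmp1 and Mepe passing without NC replicate 4 and Alpl without 0 h p.r. replicate 3. The count of the 10 genes whose groups did not overlap was 3 and ranged from 3 to 7 likewise, with 7 without either of those libraries (where 9.79% and 8.85% of all genes did not overlap in this direction), and was 2 under quantile normalization. The median over the tested genes was 1.56 and ranged from 1.33 to 2.13. Over all tested genes 374 passed both thresholds, against 793 at any fold, 195 to 516 when each library was left out (the fewest without 0 h p.r. replicate 2) and 212 with the replicate block. The replicate numbers did not pair the libraries, since same-numbered deviations correlated at -0.141, -0.0708, 0.0717 and 0.00562 and no library was most like its namesake, and under the block 0 of the 7 genes passed (Phex at an adjusted p of 0.108 in limma). Under the block the adipocyte count past both thresholds fell from 5 to 0. The osteocyte count (Cd44) and the cartilage count (Mia) fell from 1 to 0, and that of marrow and blood from 2 to 1. Counts rose from 0 to 1 for osteoblast genes, from 1 to 2 for osteoclast control and from 2 to 3 for mineral control. The causes of these shifts were not tested. Values under about 3 reads, as for Sost and Bglap in NC, limit what can be said of these genes.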
